A study of Mus musculus with 8 samples.

Results

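The myeloid receptor and signalling genes described here are 40 genes that macrophages use to sense growth factors, antibodies and microbial surfaces and to pass those signals on: colony-stimulating factor receptors, leukocyte integrins, Fc receptors and the adaptors they share, lectins and scavenger receptors, the kinases and scaffolds below them, the NADPH oxidase, actin regulators, lysozymes and the transcription factor PU.1. The members were chosen by name, with earlier results of these data known. Array probes were assigned to them through the accession printed beside each probe. Probes were found for 39 of the 40 members (52 of 39429 probes), and only Clec7a had none. Of these 39, 28 had 1 probe, 9 had 2 probes and 2 had 3 probes, out of 32395 genes or gene names on the array.

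The study co-cultured mouse 3T3-L1 pre-adipocytes (3T3L-1 in the sample labels), an embryonic fibroblast line that can become fat cells, with Raw264.7 macrophages in transwells, where a porous membrane separates the lines but lets secreted factors pass. RNA was taken after 48 h from 1 cell line per set-up, so that the RNAs of the 2 lines came from separate wells. Each line gave 4 arrays, 1 each for cells treated with cortisol (100 µM), serotonin (100 µM) or cortisol-serotonin (100 µM of each by the labels) and 1 for untreated cells, and the untreated cells were co-cultured too. With 1 array per condition, a difference between a treated and an untreated array has no replicate behind it, and no measurement of cells grown alone was used. Each array set the sample's RNA in the red channel (Cy5) against a common reference in the green channel (Cy3), and a level is given as the log2 ratio of the sample over that reference.

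In cells of the myeloid lineage, the receptor for CSF-1 (Csf1r) keeps macrophages alive and proliferating, and PU.1 (Spi1) drives much of the lineage's gene expression by binding GAGGAA-type DNA elements near start sites. Activating Fc receptors, TREM2 and several lectins signal through the adaptors Tyrobp and Fcer1g, whose ITAM motifs recruit the kinase Syk and then Vav1, Lcp2 and Btk.

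Because PU.1 is itself a member, the promoters were searched for the letters GAGGAA on either strand (TTCCTC on the printed one). Of 31 members with a promoter in the RefSeq table (build GRCm38.p6, 250 bases before to 50 after a start site), 21 (67.7%) held at least 1 match, against 31.3% of all 27025 genes in the table. Counted over promoters, 23 of 39 (59%) of those of the members held the letters, against 28.3% of 32851 of the same length. A glucocorticoid receptor motif (AGAACA, either strand) was found for 10 of the 31 members (32.3%), against 21.3% of all genes. These matches describe the letters in the window and were not tested as binding sites. Printed below are the promoters of Nfam1, of the 22 members measured there the one furthest below untreated on the serotonin array of 3T3-L1 cells, of Cd5, of 33 the one furthest below untreated on that of Raw264.7 cells, of Csf3r, the tested member that was not lower in 3T3-L1 cells, and of Fcer1g, a widely shared adaptor of low level in 3T3-L1 cells, with matches to GAGGAA or TTCCTC in capitals.
Nfam1 (chr15:83033348-83033647, minus strand): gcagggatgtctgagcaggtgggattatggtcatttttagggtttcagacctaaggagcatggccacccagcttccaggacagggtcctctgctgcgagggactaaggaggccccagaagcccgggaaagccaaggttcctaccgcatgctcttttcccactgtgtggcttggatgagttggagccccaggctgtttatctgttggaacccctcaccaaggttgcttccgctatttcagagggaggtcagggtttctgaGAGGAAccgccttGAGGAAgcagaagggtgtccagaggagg
Cd5 (chr19:10738925-10739224, minus strand): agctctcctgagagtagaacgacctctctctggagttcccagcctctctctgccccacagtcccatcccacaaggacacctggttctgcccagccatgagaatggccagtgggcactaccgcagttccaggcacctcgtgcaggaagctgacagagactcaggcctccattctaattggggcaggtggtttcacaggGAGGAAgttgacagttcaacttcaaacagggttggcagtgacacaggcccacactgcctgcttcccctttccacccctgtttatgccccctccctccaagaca
Csf3r (chr4:126024409-126024708, plus strand): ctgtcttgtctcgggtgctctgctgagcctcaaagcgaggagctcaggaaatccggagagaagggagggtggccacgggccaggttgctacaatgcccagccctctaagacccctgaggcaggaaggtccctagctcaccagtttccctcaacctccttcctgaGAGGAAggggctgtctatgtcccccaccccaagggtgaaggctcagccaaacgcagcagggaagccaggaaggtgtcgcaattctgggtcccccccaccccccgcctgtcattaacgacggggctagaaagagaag
Fcer1g (chr1:171234300-171234599, minus strand): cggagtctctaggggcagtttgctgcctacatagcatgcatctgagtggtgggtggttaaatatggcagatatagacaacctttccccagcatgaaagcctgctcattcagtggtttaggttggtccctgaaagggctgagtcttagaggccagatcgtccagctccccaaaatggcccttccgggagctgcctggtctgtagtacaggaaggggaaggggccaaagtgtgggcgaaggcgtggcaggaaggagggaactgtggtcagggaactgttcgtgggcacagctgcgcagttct
Nfam1 had 2 matches, both just after the start site of the first of its 3 listed promoters, and the other 2 had none. Cd5 and Csf3r had 1 match each and Fcer1g had none.

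The arrays carried the marker genes of their labelled lines. The pre-adipocyte and fibroblast markers Col1a2, Dlk1 and Pdgfra had Cy5 signals of 46049 to 64412, 54991 to 79977 and 569 to 1661 units in 3T3-L1 cells, against 640.0 to 1345 units, 135 to 195 units and 42.7 to 69.1 units in Raw264.7 cells, where Pdgfra was not above background. The macrophage markers Csf1r, Ptprc and Lyz2 ran the other way, whereas Itgam by its brightest probe read 4140 to 15444 units in 3T3-L1 cells, against 592 to 2505 units in Raw264.7 cells. All 4 were above background on the 4 arrays of 3T3-L1 cells too, and among the macrophage markers only Adgre1 was above background on 0 of them. Of the lymphoid markers reported here, Cd79a and Ms4a1 were above background on 0 arrays, Cd3g and Cd79b on 1 array of each line, and Cd3e on all 4 arrays of 3T3-L1 cells and 1 of Raw264.7 cells. Each slide carried the 4 arrays of 1 cell line, so slide and cell line cannot be told apart, and a treatment kept its place on the slide for both lines, so that place and treatment cannot be told apart either. Whether the labels cortisol and serotonin fit the arrays of either line is not settled. Of 8 glucocorticoid-induced genes, 3 lay above untreated on the cortisol array of 3T3-L1 cells (Klf9 by 0.56), 7 on the serotonin array and 7 on the cortisol-serotonin array, and of 7 measured in Raw264.7 cells 0, 6 and 4 did. In 3T3-L1 cells the glucocorticoid-induced genes Fkbp5 and Zbtb16 differed from untreated by 1.31 and 1.94 (log2) on the array labelled serotonin and by 1.44 and 1.96 on the array labelled cortisol-serotonin, but by 0.14 and -0.19 on the array labelled cortisol. Arrays are called by their labels throughout.

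Almost all of the measured members were far lower in 3T3-L1 cells than in Raw264.7 cells. The comparison of the 2 lines took 33 members, those with the reference above background on all 8 arrays and the sample above background on all 4 arrays of at least 1 line, into a limma model with cell line and treatment. In 32 of the 33, the level was lower in 3T3-L1 cells at an adjusted p under 0.05, against 34.7% of all 12962 genes tested, while a further 40.9% of all genes were higher in 3T3-L1 cells, which 0 of the members were. The median difference of the members was -3.88 (log2), against 0.09 for all genes. In these bulk samples fewer cells of a type and less RNA per cell cannot be told apart. As 12 of the 33 were not above background on every 3T3-L1 array with every probe, and 5 of these on no 3T3-L1 array, part of the list entered only through the Raw264.7 arrays. Of the 21 members above background in Cy5 on all 8 arrays with every probe used, 20 were lower in 3T3-L1 cells. The share of all genes under this stricter filter was not counted, and the 34.7% above includes genes above background in 1 line only.

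**Figure D1:**
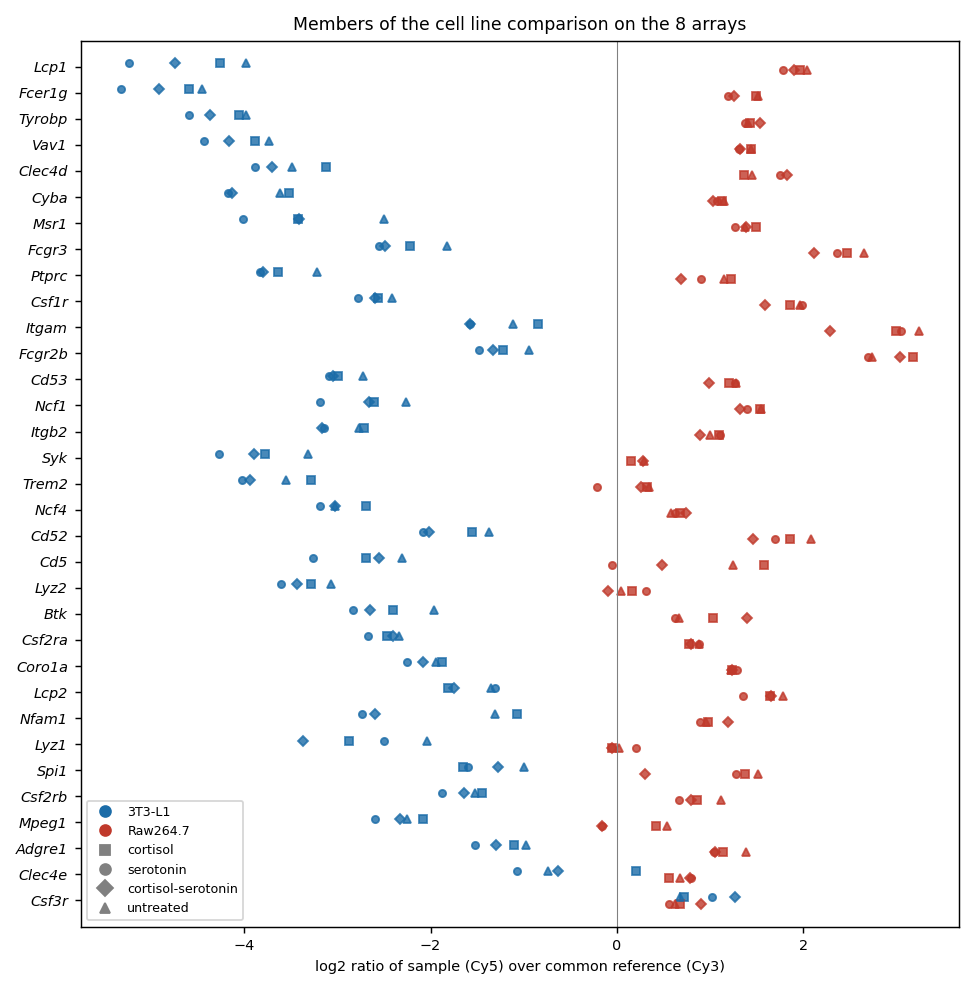
Log2 ratio of sample over common reference (x axis) for the 33 members in the cell line comparison (rows), with the 4 arrays of 3T3-L1 cells in blue, those of Raw264.7 cells in red and the treatment as the symbol. In every row except Csf3r at the bottom the blue and red symbols lie apart, by -6.48 (log2) for Lcp1 at the top and -1.26 for Clec4e.

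The ITAM adaptors showed among the widest gaps. Fcer1g, the adaptor of activating Fc receptors and Clec4e, had log2 ratios of -4.59, -5.33, -4.92 and -4.46 on the cortisol, serotonin, cortisol-serotonin and untreated arrays of 3T3-L1 cells, against 1.49, 1.19, 1.25 and 1.51 on those of Raw264.7 cells. Tyrobp (DAP12), the adaptor of TREM2, stood at -4.06, -4.59, -4.37 and -3.99 in 3T3-L1 cells in the same order of treatments, against 1.43, 1.37, 1.54 and 1.41 in Raw264.7 cells. The ranges of the 2 lines were separate for both, and both were at their lowest in 3T3-L1 cells on the serotonin array. The fitted difference was -6.19 ± 0.12 (SE, adjusted p 3.17e-09, limma, 8 arrays) for Fcer1g and -5.69 ± 0.13 (adjusted p 4.2e-09) for Tyrobp.

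The ITAM-coupled receptors were Trem2, which pairs with Tyrobp, and Nfam1, which carries an ITAM of its own. Trem2, a lipid-sensing receptor of macrophages, had log2 ratios of -3.28, -4.03, -3.94 and -3.56 in 3T3-L1 cells on the cortisol, serotonin, cortisol-serotonin and untreated arrays, against 0.33, -0.21, 0.26 and 0.34 in Raw264.7 cells. Nfam1, an ITAM-bearing receptor first described in B cells, had -1.07, -2.73, -2.60 and -1.31 in 3T3-L1 cells, against 0.98, 0.89, 1.20 and 0.96 in Raw264.7 cells. Trem2 differed by -3.88 ± 0.12 and Nfam1 by -2.93 ± 0.28 (SE). Nfam1 had the widest spread of the 33 members over the arrays of 3T3-L1 cells (SD 0.86, n = 4 arrays of differing treatment).

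Fc receptors, which bind antibody-coated particles, were found at the edge of detection in 3T3-L1 cells. Fcgr3 (CD16) had log2 ratios of -2.22, -2.55, -2.49 and -1.83 in 3T3-L1 cells over the 4 treatments in the order above, and was above background in Cy5 on 2 of these arrays, against 2.47, 2.36, 2.11 and 2.66 in Raw264.7 cells. Fcgr2b, the inhibitory receptor, was not above background on any array of 3T3-L1 cells (ratios -1.22, -1.48, -1.33 and -0.95) and stood at 3.18, 2.70, 3.04 and 2.74 in Raw264.7 cells. Its level was at least 19.2-fold lower in 3T3-L1 cells by the normalized Cy5 channel, a bound that takes for each 3T3-L1 array the lowest signal above background, or the probe's own where that was higher, and compares their mean with the Raw264.7 mean. Such a bound holds for the normalized Cy5 channel and not for the ratio, in which Fcgr2b differed by -4.16, and the fit of a member below background on every 3T3-L1 array rests on background values there. Fcgr1 (CD64) was above background on 0 arrays of 3T3-L1 cells and on 2 of Raw264.7 cells, and was not tested. No bound is given for it, as part of its Raw264.7 values were background too.

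The integrin subunits gave a gene whose probes disagreed. Itgb2 (CD18), the common beta chain of leukocyte integrins, had log2 ratios of -2.71, -3.15, -3.16 and -2.77 in 3T3-L1 cells, against 1.1, 1.1, 0.89 and 1.0 in Raw264.7 cells. Itgam (CD11b), its alpha partner in complement receptor 3, was fitted with the 1 probe that passed on all arrays: -0.84, -1.58, -1.57 and -1.12 in 3T3-L1 cells, against 3.00, 3.05, 2.29 and 3.25 in Raw264.7 cells. A further probe assigned to Itgam was bright in 3T3-L1 cells (4140 to 15444 Cy5 units on 3 arrays, its spot on the serotonin array being an outlier, against 592 to 2505 units in Raw264.7 cells), with ratios of 1.05, 1.40 and 1.13 on the cortisol, cortisol-serotonin and untreated arrays, against 1.51, 0.91 and 2.06 on those of Raw264.7 cells. The probes gave differences between the lines of -4.17 and -0.31, so the level of Itgam in 3T3-L1 cells depends on the probe. Itgax (CD11c) was above background on 0 arrays of 3T3-L1 cells and on 4 of Raw264.7 cells, at least 1.40-fold lower in 3T3-L1 cells.

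Among the growth factor receptors, 1 of 4 did not differ. Csf1r had, by its strongest probe, a high signal in Raw264.7 cells: the probe read 1225, 2109, 1753 and 1695 Cy5 units in 3T3-L1 cells on the cortisol, serotonin, cortisol-serotonin and untreated arrays, against 45912, 25344, 81560 and 63158 units in Raw264.7 cells. As the mean of its 3 probes, Csf1r had log2 ratios of -2.56, -2.78, -2.60 and -2.42 in 3T3-L1 cells, against 1.85, 1.99, 1.58 and 1.96 in Raw264.7 cells, with single probes differing between the lines by -6.17 to -2.74. Csf2ra and Csf2rb, the subunits of the GM-CSF receptor, differed by -3.30 ± 0.11 and -2.48 ± 0.11 (SE). The value of Csf2rb is the mean of 2 probes that differed between the lines by -3.56 and -1.40. The second of these was above background in Cy5 on 2 arrays of 3T3-L1 cells, and the SE does not hold the gap between the probes. Csf3r, the G-CSF receptor of granulocytes, had ratios of 0.72, 1.02, 1.27 and 0.67 in 3T3-L1 cells, against 0.68, 0.56, 0.90 and 0.63 in Raw264.7 cells, with Cy5 signals of 5464 to 16928 units in 3T3-L1 cells. Its ranges overlapped, and the difference of 0.23 ± 0.12 (SE) did not pass the test (adjusted p 0.107).

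The lectins ran from one of the widest gaps to the narrowest called one. Clec4d, a C-type lectin for fungal and mycobacterial glycolipids, had log2 ratios of -3.12, -3.88, -3.70 and -3.49 in 3T3-L1 cells, against 1.37, 1.75, 1.83 and 1.45 in Raw264.7 cells. Clec4e (Mincle), encoded next to it, had 0.21, -1.07, -0.63 and -0.74, against 0.56, 0.80, 0.78 and 0.68. All 4 arrays of 3T3-L1 cells lay below those of Raw264.7 cells for Clec4e, and the fitted difference was -1.26 ± 0.22 (SE, adjusted p 0.000595). In the Cy5 channel alone Clec4e did not pass (-0.82, adjusted p 0.0729). Mrc1, the mannose receptor, ran the other way: it was above background in Cy5 on all 4 arrays of 3T3-L1 cells (100.0, 134.5, 134 and 165 units) and on 0 of Raw264.7 cells (37, 44, 41 and 40 units), at least 1.92-fold higher in 3T3-L1 cells. The reference channel of Mrc1 was above background on 1 array, so it was left out of the fit.

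The scavenger receptor Msr1 had log2 ratios of -3.42, -4.01, -3.41 and -2.50 in 3T3-L1 cells as the mean of 2 probes, against 1.5, 1.27, 1.38 and 1.37 in Raw264.7 cells. Only 1 of the probes was above background in 3T3-L1 cells, on the cortisol and untreated arrays. Marco, the other scavenger receptor, had Cy5 signals of 65.0 to 106 units in 3T3-L1 cells and 60.0 to 104 units in Raw264.7 cells, above background on 3 arrays of each line.

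Spi1, the gene of PU.1, was not above background on any array of 3T3-L1 cells, where its log2 ratios were -1.66, -1.60, -1.27 and -1.0, against 1.37, 1.28, 0.30 and 1.51 in Raw264.7 cells. In the normalized Cy5 channel it was at least 6.81-fold lower in 3T3-L1 cells, where the fitted difference of the ratios was -2.50. Btk and Ncf1, an ITAM-pathway kinase and an organiser of the NADPH oxidase, were also below background on every array of 3T3-L1 cells, with Ncf1 at least 21.9-fold lower and the 2 probes of Btk at least 6.02-fold and 31.0-fold lower in the normalized Cy5 channel, and fitted ratio differences of -4.13 for Ncf1 and -3.39 for Btk. Adgre1 (F4/80), the classical macrophage surface marker, was at least 5.54-fold and 6.24-fold lower by its 2 probes.

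Actin regulators of leukocytes held the widest gap of all members. Lcp1 (L-plastin), an actin bundler fitted with 1 of its 2 probes, had log2 ratios of -4.26, -5.24, -4.75 and -3.98 in 3T3-L1 cells, against 1.97, 1.78, 1.90 and 2.04 in Raw264.7 cells, a difference of -6.48 ± 0.17 (SE, adjusted p 5.4e-09). Coro1a, which binds actin at the phagocytic cup, had -1.88, -2.26, -2.08 and -1.94 in 3T3-L1 cells, against 1.23, 1.29, 1.23 and 1.22 in Raw264.7 cells, the tightest set of values among the members in Raw264.7 cells (SD 0.03, n = 4). Both were separate between the lines on every array.

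Among the signalling proteins and the oxidase, Vav1, an exchange factor for Rac, differed by -5.43 ± 0.12 and Syk by -3.90 ± 0.15, with Syk fitted on 7 arrays because its spot on the serotonin array of Raw264.7 cells was an outlier. Cyba (p22phox), the membrane subunit of the oxidase, had log2 ratios of -3.52, -4.18, -4.14 and -3.62 in 3T3-L1 cells, against 1.13, 1.08, 1.04 and 1.15 in Raw264.7 cells. Cyba was among the brightest members, with 1304 to 1839 Cy5 units in 3T3-L1 cells and 40970 to 58130 units in Raw264.7 cells by its stronger probe. Cybb (gp91phox), its partner, was much dimmer, above background on 0 arrays of 3T3-L1 cells (51.0 to 67 units) and on 4 of Raw264.7 cells (114 to 155 units), at least 2.17-fold lower in 3T3-L1 cells. The remaining members in the fit, namely Ptprc, Cd53, Cd52, Cd5, Ncf4, Lcp2, Mpeg1, Lyz1 and Lyz2, differed by -4.62 (Ptprc) to -2.47 (Mpeg1). Cd84 was above background on 0 arrays of 3T3-L1 cells and on 3 of Raw264.7 cells.

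Expressed as a share of the Raw264.7 level under the same treatment, the members spread widely. Among the 25 members measured on both untreated arrays the median share was 7.33% and the range 1.60% (Fcer1g) to 103% (Csf3r), where the median over all 12951 genes was 101%. Below 5% of the Raw264.7 level were 9 of the 25, compared with 0.734% of all genes. Fcer1g held 1.47%, 1.09%, 1.38% and 1.60% on the cortisol, serotonin, cortisol-serotonin and untreated arrays, Tyrobp 2.24%, 1.60%, 1.67% and 2.37%, and Clec4e 78.6%, 27.4%, 37.5% and 37.4%. In 21 members measured under all 4 treatments the median share was 8.2% under cortisol, 5.26% under serotonin, 6.10% under cortisol-serotonin and 7.33% untreated, and 18 of the 21 had a lower share under serotonin than untreated. Over all genes the median share was 107% under serotonin and 101% untreated, and how many of them had a lower share under serotonin was not counted. The shares of Itgam and Csf2rb moved with the number of probes above background. Without these genes, a choice made after seeing the data, the medians over 19 members were 7.13%, 5.26%, 6.03% and 6.7%, and 16 of the 19 were lower under serotonin than untreated. With median centring the median share over the members measured was 7.01% under serotonin and 3.43% untreated, so that this order turned round.

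**Figure D2:**
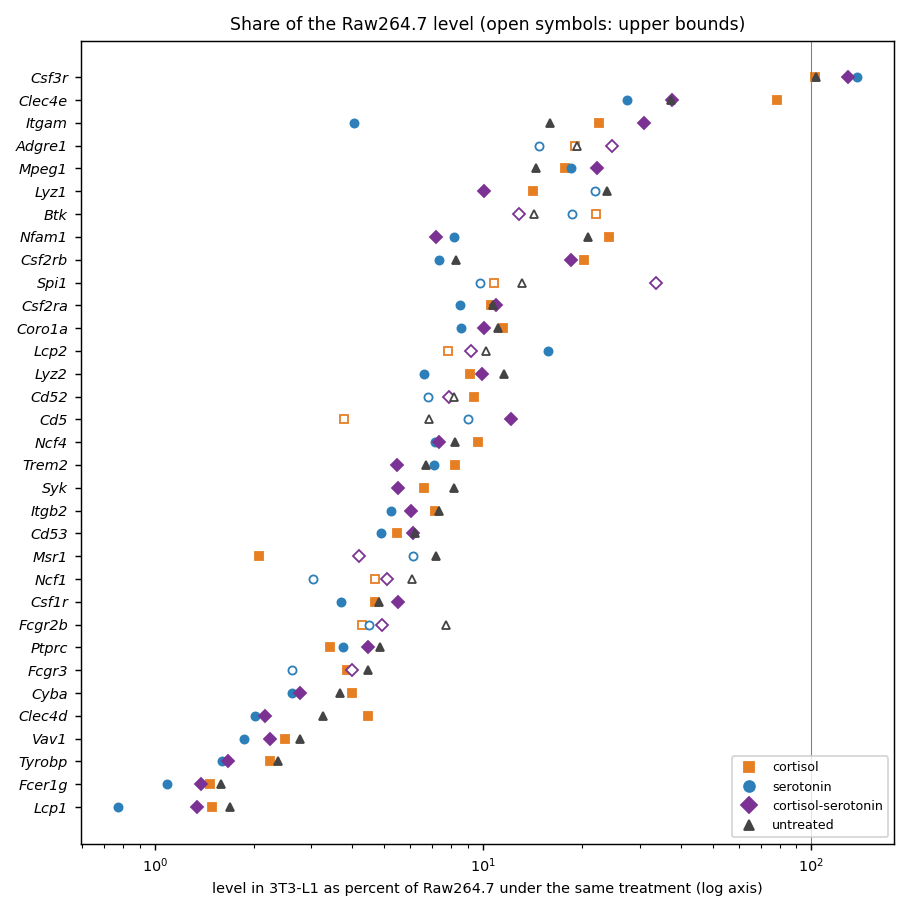
Level in 3T3-L1 cells as a percent of Raw264.7 cells under the same treatment (x axis, log scale) for each member (rows), with a symbol per treatment and open symbols for upper bounds where the 3T3-L1 sample was not above background. Lcp1, Fcer1g and Tyrobp lie near 1% to 2% at the bottom, and Csf3r lies at 103% to 138% at the top.

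In 3T3-L1 cells, with the main normalization, the members were lower on the serotonin array than on the untreated array almost without exception. On the serotonin array 21 of 22 measured members lay below untreated, against 49% of all 13590 genes, with a median difference of -0.47 (log2), against 0.01 for all genes. In Cy5 alone 18 of 23 members lay below untreated (50% of all genes), and after median centring 1 of 22 did (2.31% of all genes). On the cortisol-serotonin array 21 of 23 lay below untreated, against 46.8% of all 13400 genes, with a median of -0.36, against 0.02 for all genes. On the cortisol array 13 of 25 did, against 49.4% of all 13718 genes, with a median of -0.07, against 0.01. The 3 comparisons share the untreated array. Of the 22 members with a value under every treatment in 3T3-L1 cells, 20 had their lowest level on the serotonin array, as had 21.3% of all genes.

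**Figure D3:**
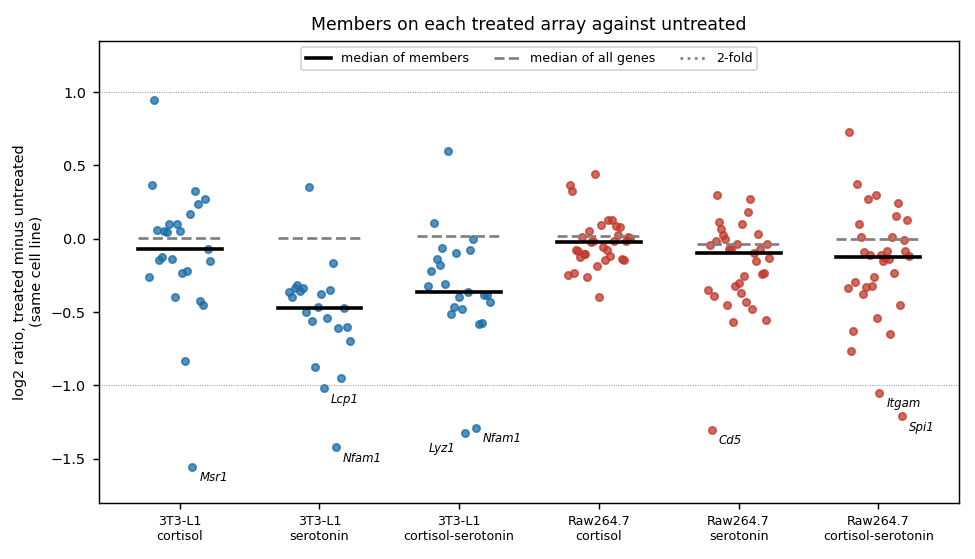
Log2 ratio under each treatment minus that of untreated cells of the line (y axis), 1 point per member measured on both arrays, with the median of the members (black), the median of all genes (grey, dashed) and the 2-fold threshold (dotted). The members' median lies at -0.47 on the serotonin and -0.36 on the cortisol-serotonin array of 3T3-L1 cells, and between -0.13 and -0.02 on the arrays of Raw264.7 cells.

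Few single members lay 2-fold or more from untreated. On the serotonin array of 3T3-L1 cells 2 of 22 members did, both downwards, against 1.24% of all genes in either direction, on the cortisol-serotonin array 2 of 23 (1.43% of all genes), and on the cortisol array 1 of 25 (1.65% of all genes). Nfam1 was lower on both serotonin-containing arrays, by -1.42 and -1.29 (-0.48 and -0.37 with median centring, -2.58 and -2.16 with processed signals, Feature Extraction errors 0.51 and 0.48, which combine the error the scanner software gives the ratio on both arrays and hold no biological spread), where its Cy5 signal was 75.5 and 89 units against 237.5 units untreated, and on the cortisol array it was 298.5 units and 0.24 above untreated. Lcp1 differed by -1.02 ± 0.57 (Feature Extraction error) on the serotonin array, and its Cy5 signals of 126 and 138.5 units there were near the 159 and 162 units of the untreated array. Lyz1 differed by -1.33 ± 0.59 on the cortisol-serotonin array, although its Cy5 signal was 145 units there and 74 units untreated. Msr1 differed by -1.55 ± 0.67 on the cortisol array by 1 probe, which read 71 units there and 217 units on the untreated array, while the other probe read 41 and 46 units, below background. On the serotonin and cortisol-serotonin arrays the first probe read 63 and 56.5 units and was not above background. The member furthest above untreated was Clec4e on the cortisol array, by 0.95, with Cy5 signals of 4017 units there and 3686 units untreated.

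By role, each group with measured members had a median below untreated on the serotonin array of 3T3-L1 cells. ITAM adaptors had a median difference of -0.74 on the serotonin array, the ITAM-coupled receptors Trem2 and Nfam1 -0.95, the signalling proteins Syk and Vav1 -0.82, the actin regulators -0.67, the surface markers Ptprc and Cd53 -0.49, the antimicrobial effectors Lyz2 and Mpeg1 -0.45, the integrins -0.42, the lectins -0.37, the NADPH oxidase subunits -0.36, and the growth factor receptors -0.35, with Csf3r at 0.35 above untreated. Before any normalization the Cy5 signals were mixed: Tyrobp read 542.5 units on the serotonin array and 462 units untreated, and Fcer1g 217 and 252 units. The size of the median shift moved with the normalization. It was -0.26 when the processed signals of the scanner software were used, -0.11 in Cy5 alone, and 0.65 after median centring, which moved the median of all genes by 1.07, so that the members lay at -0.42 relative to all genes there. On the cortisol array the median of the members was above 0 with processed signals (0.19), no background correction (0.13) and Cy5 alone (0.14).

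In the model with a cortisol and a serotonin effect within each line, 22 members had at least 1 probe above background in both channels on all 8 arrays, Csf2rb by 1 of its 2 probes, and Syk lacked its value on 1 array. For serotonin in 3T3-L1 cells 1 of the 22 passed, Nfam1, at -1.48 ± 0.15 (SE, adjusted p 0.0207, limma), against 0.112% of all 11623 genes. At an unadjusted p under 0.05 were 14 of the 22, 13 of them lower, against 13.3% of all genes. Lcp1 (-0.87, adjusted p 0.158), Fcer1g (-0.60, adjusted p 0.223) and Cyba (-0.59, adjusted p 0.166) did not pass. No member passed for cortisol in 3T3-L1 cells, cortisol in Raw264.7 cells or serotonin in Raw264.7 cells by limma (0% of all genes each), where 1, 1 and 3 members, and 350, 298 and 391 genes in all, had an unadjusted p under 0.05. The serotonin effect on Nfam1 was 0.07 ± 0.15 in Raw264.7 cells, and the difference of the effect between the lines, -1.55 ± 0.21 (SE), did not pass (adjusted p 0.190). The fit of all 8 arrays left 2 residual degrees of freedom. Without any 1 of the 4 arrays of 3T3-L1 cells the effect on Nfam1 was -1.53 to -1.42. Such a fit has as many terms as arrays in that line, so its spread came from the Raw264.7 arrays alone. Whether the call holds without an array could therefore not be tested. With median centring the effect on Nfam1 was -0.79 (adjusted p 0.053, limma), and with the Cy5 channel alone it was -1.53 (adjusted p 0.979). It passed with neither.

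**Figure D4:**
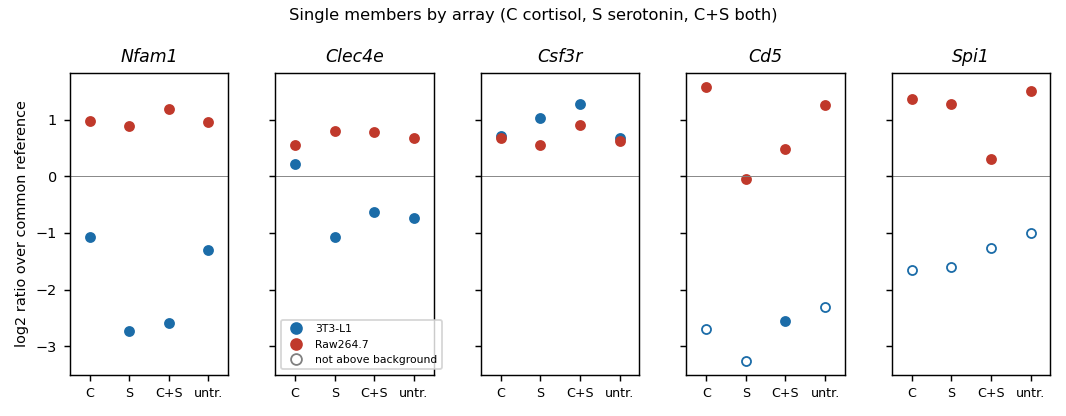
Log2 ratio over the common reference (y axis, shared) on the cortisol, serotonin, cortisol-serotonin and untreated arrays (x axis) for 5 members, with 3T3-L1 cells in blue and Raw264.7 cells in red, and open symbols where the sample was not above background. Nfam1 stands at -2.73 and -2.60 on the 2 serotonin-containing arrays of 3T3-L1 cells, against -1.31 untreated, and Cd5 and Spi1 have single low arrays in Raw264.7 cells.

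In Raw264.7 cells the members moved less. On the serotonin array 25 of 33 lay below untreated, against 58.1% of all 12697 genes, with a median of -0.10, against -0.04 for all genes. On the cortisol-serotonin array 24 of 34 did, against 50.8% of all 13360 genes (median -0.13), and on the cortisol array 20 of 33, against 43.4% of all 13252 genes (median -0.02, against 0.02). At least 2-fold from untreated were 1 of 33 on the serotonin array (0.914% of all genes), 2 of 34 on the cortisol-serotonin array (0.254%) and 0 of 33 on the cortisol array (0.083%).

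Cd5, a scavenger-receptor-type surface protein best known from T cells, had log2 ratios of 1.58, -0.05, 0.49 and 1.25 on the cortisol, serotonin, cortisol-serotonin and untreated arrays of Raw264.7 cells, with Cy5 signals of 1505, 561, 725 and 1545 units. Its level was thus lower on both serotonin-containing arrays, by -1.30 ± 0.32 (Feature Extraction error) on the serotonin array and by -0.76 on the cortisol-serotonin array. Spi1 was low on the cortisol-serotonin array alone, by -1.21 ± 0.37, with Cy5 signals of 166 units there, 456 and 544 units under cortisol and serotonin, and 640.5 units untreated. Itgam was lower on the same array by -1.05 ± 0.32 over 2 probes, whereas the difference in the Cy5 channel alone was -0.24.

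Lists of other genes were read on the same arrays, where 34.7% of all genes were lower and 40.9% higher in 3T3-L1 cells and 49% lay below untreated on the serotonin array. Of 30 further signalling genes of myeloid cells, 22 of 25 tested were lower in 3T3-L1 cells than in Raw264.7 cells and 2 higher, and on the serotonin array of 3T3-L1 cells 16 of 20 lay below untreated (median -0.33). The lowest there were Nckap1l, a subunit of the leukocyte WAVE complex (-1.22), and the phosphatase gene Ptpn6 (-0.95), and the highest were Sh3bp2, an adaptor that binds Syk (1.08), and Fyb (0.03). Of 30 other macrophage genes, 18 of 18 tested were lower in 3T3-L1 cells, and 13 of 14 lay below untreated on the serotonin array (median -0.45), with Ctss, a lysosomal protease, at -1.75 and the fractalkine receptor gene Cx3cr1 at -1.23, and with Irf8 at -0.02 and Arhgdib at 0.33. Over the 698 other genes that were at least 2-fold above the reference on the untreated Raw264.7 array, 61.5% lay below untreated on the serotonin array of 3T3-L1 cells, with a median of -0.10. This share was 54.0% with processed signals (median -0.03), 54.2% with Cy5 alone and 3.44% with median centring (median 0.86). Of the pre-adipocyte and fibroblast genes, 27 of 27 tested were higher in 3T3-L1 cells, and on the serotonin array 16 of 27 lay below untreated (median -0.09), with Col1a2 at -0.52, Dcn at -0.46, Pdgfra at 0.96 and Col6a2 at 1.0.

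Summed over genes above background in both channels throughout 3T3-L1 cells, the linear ratios of 14 other macrophage genes came to 3.58, 3.05, 3.30 and 3.31 on the cortisol, serotonin, cortisol-serotonin and untreated arrays, those of the 22 members to 6.08, 4.66, 5.45 and 5.33, and those of 28 pre-adipocyte and fibroblast genes to 42.2, 41.9, 47.3 and 44.9. All 3 sums were at their lowest on the serotonin array. A linear sum weighs most the genes of highest ratio, among the members Csf3r and Clec4e, which differed least between the lines. The mean log2 ratio of the 22 members was -2.65, -3.20, -3.00 and -2.69 on the arrays in the same order. For the 14 other macrophage genes it was -3.06, -3.51, -3.33 and -2.96. For the 28 pre-adipocyte and fibroblast genes it was 0.31, 0.33, 0.43 and 0.37, so by this measure their lowest array was cortisol and not serotonin. The part of macrophage RNA in the 3T3-L1 samples in these differences was not tested.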

How the data were processed

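RNA of 8 samples was hybridised to two-colour Agilent mouse arrays. The authors scanned them with Agilent Feature Extraction (version 10.5.1.1 per the labels, another version in the methods). The deposited scanner files give median signal and background intensities of both channels, processed signals, flags and a log10 ratio of Cy5 over Cy3 with its error. The deposited series matrix holds the same log10 ratio (within 0.005 on each array), with column medians of 0. The methods describe the reference as pooled cRNA of untreated cells grown alone, the labels as an equal mix of all samples' RNA. Treated minus untreated cancels it.

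Background was corrected with normexp (offset 50) and ratios were normalized by loess within arrays in limma 3.58.1 (R 4.3.3). Control and outlier spots were left out and the spots of a probe averaged. Accessions were matched to RefSeq genes (assembly GRCm38.p6, 69.8% of probes). Probes that the flags put well above background in Cy5 and Cy3 on the arrays of a comparison were averaged per gene. Median Cy5 signals were 51 to 103 units with local backgrounds of 26.5 to 28. No spot was saturated, and the number of arrays limits the precision. The lowest correlation between arrays was -0.215, between the lines.

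Treated arrays were compared with untreated at 2-fold, with no test. Line and hormone effects were fitted with limma across all genes (Benjamini-Hochberg, 0.05), the model being checked on simulated data. The 4 arrays of a line differ in treatment, so the p-values measure the spread around an additive model. In full were given members at least 2-fold from untreated, the brightest members and those of small role groups, and from each other list the 2 highest and 2 lowest on the serotonin array of 3T3-L1 cells. The members and lists were chosen with earlier results of these data known. Alternatives tried were no background correction, an offset of 10, median centring, processed signals, the series matrix, Cy5 alone, no filter, the brightest probe, outliers kept, a 1.5-fold threshold, no treatment term, each array left out and each line fitted alone.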

Additional observations from a re-analysis of the deposited data

How the results depend on the processing

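Of 240 alternative values of the main results, 196 stayed close to the main value and 44 moved. Counts were taken as close within 1.5 times, and medians and shares within the median Feature Extraction error. A median within that error could change its sign. On the cortisol array of 3T3-L1 cells the members' median was -0.07, and 0.19 with processed signals. The count of members lower in 3T3-L1 cells than in Raw264.7 cells was 32 without any 1 array. No paired analysis was possible, as each line had 1 array per condition and the RNAs of the 2 lines came from separate wells. The cell line model matches the arrays of the lines by treatment, and without that term the count was 32 too. The members called for serotonin in 3T3-L1 cells numbered 0 with the Cy5 channel alone. Hormone fits without 1 array leave no spread in the line that lost it, so their counts are not given. The median share of the Raw264.7 level with processed signals and with the series matrix was 4.94% and 4.95% under cortisol, 3.65% and 3.65% under serotonin, 4.19% and 4.21% under cortisol-serotonin, and 4.23% and 4.23% untreated. With no filter it was 8.33% under serotonin, 8.99% under cortisol-serotonin and 10.71% untreated, and with median centring 6.05% under cortisol, 7.01% under serotonin, 6.71% under cortisol-serotonin and 3.43% untreated. Median centring put the members' median differences in 3T3-L1 cells at 0.61 (cortisol), 0.65 (serotonin) and 0.67 (cortisol-serotonin). The medians of all genes were 0.59, 1.07 and 0.99 there, and 3 of 25, 1 of 22 and 2 of 23 members lay below untreated. The members at least 2-fold from untreated in 3T3-L1 cells under cortisol numbered 3 at 1.5-fold, 5 with median centring and 0 with no filter. Under serotonin they numbered 7 at 1.5-fold, 4 with median centring, and 1 with no background correction, processed signals, the series matrix or Cy5 alone. Under cortisol-serotonin they numbered 6 with median centring and 1 with those other 4 settings. In Raw264.7 cells they numbered 6 at 1.5-fold, 6 with Cy5 alone and 1 with no filter under cortisol-serotonin, and 2 with processed signals, the series matrix or Cy5 alone under serotonin. These counts take members in either direction. The shares of all genes beside them were not counted, so they are not read as results about the members. Lcp1 on the serotonin array of 3T3-L1 cells turned to 0.10 with median centring, and Lyz1 on the cortisol-serotonin array to 0.49 with Cy5 alone. The uncalled serotonin effect on Nfam1 in Raw264.7 cells turned to -0.0071 with median centring, -0.11 with Cy5 alone, and lay at -0.0696 to 0.216 without any 1 array of that line. The difference of its effect between the lines was -1.69 without the untreated or the serotonin array of Raw264.7 cells. The cause was not tested. Dim spots, such as those of Spi1 in 3T3-L1 cells, bound the levels that could be measured.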

Other observations

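The ligands of the growth factor receptors were measured on the same arrays. Csf1, the ligand of Csf1r, was 5.91 (log2) higher in 3T3-L1 cells than in Raw264.7 cells (adjusted p 4.13e-09, limma), and Il34, the other ligand, was 2.49 higher (adjusted p 6.97e-08). Csf2, which encodes GM-CSF, was above background on 4 arrays of 3T3-L1 cells and on 1 of Raw264.7 cells, so its difference is not given. Csf3, which encodes G-CSF, was lower (difference -1.0, adjusted p 0.0162). In 3T3-L1 cells Csf2 differed from untreated by 1.58 on the cortisol array, -0.91 on the serotonin array and -0.75 on the cortisol-serotonin array. Csf3 differed by 1.83, 0.78 and 1.07 on these arrays. Csf1 differed by 0.29, 0.08 and -0.01. These differences from untreated rest on 1 array each.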
